A study of Rattus norvegicus with 70 samples.

Results

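Methylation around transcript starts was compared between water-control livers at terminal euthanasia and at partial hepatectomy, in 10 of the 70 libraries of a rat liver carcinogenesis study. The members were the 5 libraries with the title MC_water at each time, and the numbers 1 to 5 in the titles joined a hepatectomy library to a terminal library. Outbred rats of the strain Crj:CD(SD)IGS received 0.5% methylcellulose, the vehicle, and then plain water, with no initiating compound and no phenobarbital. Hepatectomy came 1 week and euthanasia 6 weeks into the promotion phase, so every terminal liver had also lost tissue and regrown. The sources used here give neither age nor sex, and the labels do not say whether a shared number is 1 animal. Growth of the animal, regrowth of the liver and any difference in handling between the times cannot be told apart in this design.

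Other livers served for comparison at the same times and with the same surgery, again in groups of 5. Phenobarbital livers, titled MC_PB, had the same vehicle and then water with 500 ppm phenobarbital, a drug that promotes liver tumours in rodents. Initiated livers were from 5 conditions that also drank 500 ppm phenobarbital. They had first received diethylnitrosamine (DEN) at 3 or 30 mg/kg, thioacetamide (TAA) at 45 mg/kg, methapyrilene (MP) at 100 mg/kg or acetaminophen (APAP) at 1000 mg/kg.

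Partial hepatectomy removes part of the liver, and the remaining mature cells leave their resting state, divide and restore the mass of the organ. The response runs from cytokine priming through growth factor signalling to cyclin-driven DNA synthesis. Methylation of cytosine in CpG pairs is copied to the new strand at each division by Dnmt1, which Uhrf1 guides to freshly replicated DNA. Dense methylation at a promoter usually goes with a silent gene, while CpG-rich promoters of active genes are mostly unmethylated.

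The libraries held DNA captured with a methyl-binding protein, and the deposited signal of a region is its reads scaled to a common total of 50 M. Regions spanned 5625 bp around a transcript start, and 16385 of 17174 passed the filter on low signal. Capture depends on CpG density as well as methylation, so levels were compared between samples and not between genes. In bulk liver, altered methylation within cells and an altered mix of cells cannot be told apart. No expression was measured, so the liver label could not be checked against marker transcripts.

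The water libraries had scaling totals of 43.2 M to 52.3 M and 0.992 M to 1.43 M reads in regions, with a median of 44 to 52 reads a region. Hepatectomy library 5 stood apart. In it 0.611% of regions had no read, against 3.05% to 4.02% in the other 9, its 10th percentile of signal was 15.2 and its 90th was 111. Its signal was thus compressed toward the middle, and many results, though not all, are given with and without pair 5. Differences given only once include pair 5. Under 1% of regions without a read, called weak enrichment here, was also found in 1 of 10 phenobarbital libraries (terminal library 5, 0.740%) and in 7 of 50 initiated libraries (0.687% to 0.932%). Of these 7, 3 were from hepatectomy and 4 from terminal euthanasia. The scaling totals of hepatectomy libraries 1 and 2, 50.0072 M and 48.6974 M, recurred exactly in hepatectomy libraries 5 of the 3 and 30 mg/kg DEN groups. In every initiated condition, library 5 at each time had the exact total of a hepatectomy library numbered 1 or 2. Whose totals these are is not known. In each of these conditions, library 5 had a higher median signal at terminal euthanasia than at hepatectomy. Leaving out these libraries as a set was not tested.

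No library-wide measure passed a test between the times. The median signal was 50.2 ± 1.45 (SD, n = 5) at hepatectomy and 51.5 ± 1.4 at terminal euthanasia, higher in 3 of 5 pairs (two-sided exact paired permutation test, p = 0.375, where 1 in 16 is the smallest p that 5 pairs allow). The 90th percentile was 174 ± 36.9 and 187 ± 5.85, a difference of 13 that became -1.59 without pair 5. Regions without a read made up 3.08% ± 1.39 and 3.49% ± 0.398, and without pair 5 the means were 3.69% and 3.60%. The groups overlapped in all of these measures.

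**Figure D1:**
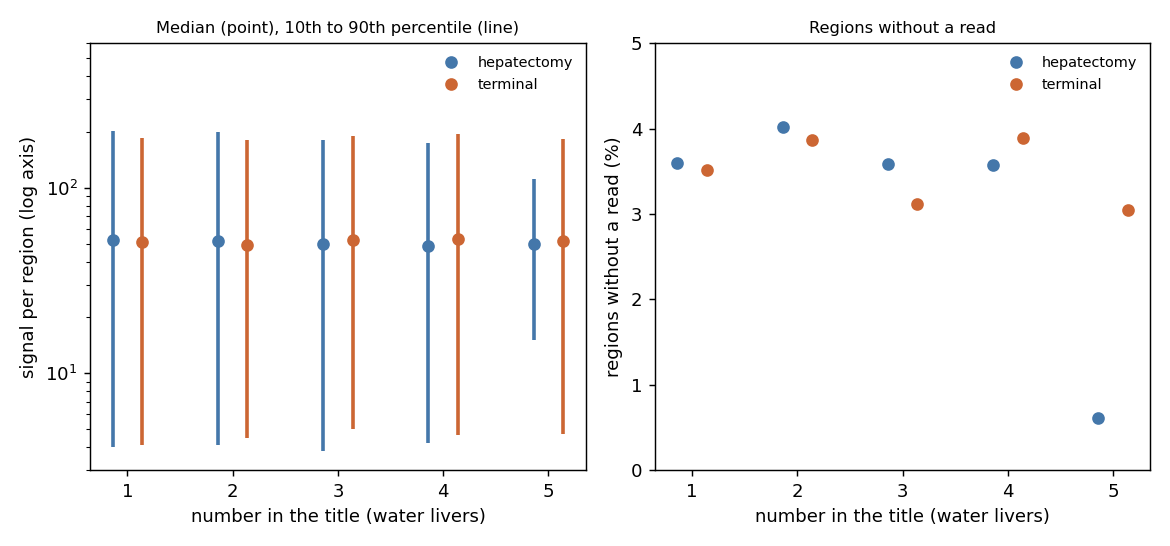
Left, median signal per region (point) and 10th to 90th percentile (line) on a log axis for each water library by its title number. Right, percent of regions without a read. Hepatectomy library 5 has the narrowest range, 15.2 to 111, and 0.611% of regions without a read, while the other 9 libraries lie close together.

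Region by region, the livers of the 2 times were about as alike as livers of the same time. Pearson's r of log2 signal over regions had a median of 0.92 within hepatectomy (10 pairs of libraries), 0.92 within terminal euthanasia (10) and 0.92 between libraries of the same number (5). These are descriptions over regions, which are not independent, and libraries share CpG density and depth. The change from hepatectomy to terminal euthanasia had an SD over regions of 0.65 to 0.72 (log2) in pairs 1 to 4 and 1.03 in pair 5. Regions past 2-fold made up 9.7% to 12.4% in pairs 1 to 4 and 24.8% in pair 5. In pair 5 the change followed the level. Its median was -1.71 in the decile of regions with the lowest signal in the other 8 libraries and 0.87 in the highest decile, while in pairs 1 to 4 the highest decile lay between -0.18 and 0.16.

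**Figure D2:**
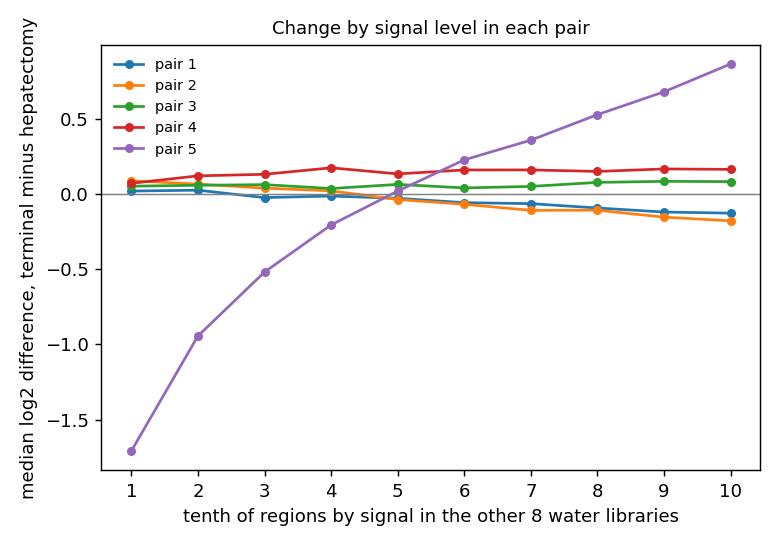
Median log2 difference (terminal minus hepatectomy) of each pair, for deciles of the tested regions ordered by their signal in the 8 water libraries outside that pair. Pairs 1 to 4 stay near 0, and pair 5 climbs from -1.71 to 0.87.

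No region passed the threshold for a change in water livers. A pair here means libraries of the same title number, and whether a pair is 1 animal is not given. limma tested the difference over the 5 pairs on log2(signal + 1), with the variance estimated from all 70 libraries, and a region was called at a Benjamini-Hochberg adjusted p under 0.05. Called regions were 0 of 16385 (0.0%), with a smallest adjusted p of 0.141, or 0.633 with no replicate block. At an unadjusted p under 0.05 there were 542 regions higher at terminal euthanasia (3.31%) and 270 lower (1.65%), 4.96% in all. These counts were 324 and 204 without pair 5, and 595 and 439 with quantile normalization. With rescaling to the sum over regions they were 392 and 441. The median difference was 0.06 over all tested regions, and 0.02 without pair 5. All 5 pairs went the same way in 939 regions (5.73%), higher in 598 (3.65%) and lower in 341 (2.08%), and the groups did not overlap in 116 (0.708%), of which 80 were higher (0.488%) and 36 lower (0.22%). The chromosomes with at least 100 tested regions had medians between 0.02 and 0.10. Without pair 5 the X chromosome had the highest, 0.09 over 484 regions, and the autosomes lay between -0.01 and 0.04. In pairs 1 to 5 the X medians were 0.02, -0.04, 0.18, 0.12 and -0.16, on both sides of 0. Every region named below for water livers is therefore given as values that did not pass, unless another comparison is stated.

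The lowest unadjusted p-values belonged to 3 regions of low signal, and were 1.67e-05, 1.94e-05 and 2.57e-05 in limma, each with an adjusted p of 0.141. These regions lay below the median signal of 55.1 and were chosen after their values were seen. They are Afg3l1, a paralogue of subunits of a mitochondrial inner-membrane protease, Sprn, which encodes the prion-like protein Shadoo, and the region the table calls Hoxa10. The transcript of that last region is named Hoxa11 in RefSeq, and the region overlaps its antisense transcript, so the table's symbol is kept here only as a label. The 250 bases upstream of each start are shown because these regions had the lowest p-values, and that of Ccne1 because it has the lowest p among regions of higher signal with a cell cycle role. They come from RefSeq on GRCr8, with CpG in capitals, and their place within the coordinates of the table was not established.
Afg3l1: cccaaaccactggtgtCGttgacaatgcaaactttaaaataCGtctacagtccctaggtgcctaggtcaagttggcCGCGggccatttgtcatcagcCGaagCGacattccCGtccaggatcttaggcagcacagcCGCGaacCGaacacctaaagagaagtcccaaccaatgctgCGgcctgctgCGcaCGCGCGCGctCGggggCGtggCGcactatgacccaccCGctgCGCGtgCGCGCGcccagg
Sprn: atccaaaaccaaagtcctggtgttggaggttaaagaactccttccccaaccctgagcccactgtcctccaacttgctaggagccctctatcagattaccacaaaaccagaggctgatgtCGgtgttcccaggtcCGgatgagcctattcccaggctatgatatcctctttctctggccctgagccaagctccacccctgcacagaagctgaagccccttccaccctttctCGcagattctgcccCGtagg
Hoxa10 (RefSeq Hoxa11): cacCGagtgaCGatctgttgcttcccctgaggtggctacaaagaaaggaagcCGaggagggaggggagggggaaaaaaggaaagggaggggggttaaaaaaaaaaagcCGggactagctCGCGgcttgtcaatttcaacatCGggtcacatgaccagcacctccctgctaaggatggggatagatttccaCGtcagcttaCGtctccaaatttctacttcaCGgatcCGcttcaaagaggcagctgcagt
Ccne1: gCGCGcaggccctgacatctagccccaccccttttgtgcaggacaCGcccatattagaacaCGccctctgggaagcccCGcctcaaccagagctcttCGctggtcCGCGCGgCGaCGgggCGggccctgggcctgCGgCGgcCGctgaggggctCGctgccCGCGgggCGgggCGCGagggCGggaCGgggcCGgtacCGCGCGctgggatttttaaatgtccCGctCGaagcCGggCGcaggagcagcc

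These stretches lie on GRCr8 chromosome 19 at 68416851 to 68417100 (plus strand), chromosome 1 at 204376962 to 204377211 (minus), chromosome 4 at 82676802 to 82677051 (minus) and chromosome 1 at 99927910 to 99928159 (minus). They hold 25, 4, 11 and 31 CpG. Of 27457 genes with a promoter entry, taking 1 start each and the same length, 10.4% had at least as many CpG as Afg3l1, 63.9% as many as Sprn, 36.1% as many as Hoxa10 and 4.88% as many as Ccne1. A count of CpG in this window says nothing of which of them were methylated.

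Afg3l1 (chromosome 19, 53789761 to 53795386 in the files) had signals of 7, 12.3, 4.78, 13.7 and 42.5 at hepatectomy in libraries 1 to 5. At terminal euthanasia they were 0, 0, 4.01, 6.94 and 4.4, from 0 to 6 reads. Each pair was lower, the groups overlapped, and hepatectomy library 5 was the highest. The log2 difference was -2.16 ± 0.47 (SE), and -1.95 without pair 5. It passed the threshold with a pseudocount of 0.1 (adjusted p = 0.00683) and without pair 3 (adjusted p = 0.0295), and the adjusted p ranged up to 0.948 over the alternatives.

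Hoxa10 (chromosome 4, 80544954 to 80550579) had 10, 18.5, 6.69, 11.6 and 54.7 at hepatectomy. The terminal livers had 0, 7.86, 2, 0 and 4.4, with library 5 again the highest at the first time. Signal was lower in all 5 pairs, and the groups overlapped only through terminal library 2. The log2 difference was -2.59 ± 0.58, and -2.39 without pair 5. With a pseudocount of 0.1 the adjusted p was 0.0423, and the highest over the alternatives was 0.948.

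Sprn (chromosome 1, 199952628 to 199958253) went the other way, from 34, 17.5, 20.1, 2.10 and 6.07 to 38.8, 50.5, 50.1, 35.9 and 19.8. Signal was higher in all 5 pairs, and the groups overlapped, since hepatectomy libraries 1 and 3 lay above terminal library 5. The log2 difference was 1.61 ± 0.35, and 1.63 without pair 5. It passed in the fit to the 10 water libraries alone (adjusted p = 0.0372) and without pair 1 (adjusted p = 0.0468). Over the alternatives the adjusted p reached 0.993.

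Hspe1, the mitochondrial co-chaperonin whose region overlaps that of Hspd1, also passed in the fit to the 10 water libraries (adjusted p = 0.0247). Its signals were 86, 14.4, 24.9, 65.2 and 26.3 at hepatectomy and 52.1, 89.8, 81.1, 62.5 and 114 at terminal euthanasia. Only 3 of 5 pairs were higher, and the adjusted p was 0.966 in the fit to all 70 libraries. Another 5 low-signal regions with low p-values, chosen after their values were seen, were lower in the terminal livers. Glrx2, a mitochondrial glutaredoxin, had 14.4 to 22 at hepatectomy and 0 to 13.2 at terminal euthanasia, with no overlap. Efna5, an ephrin ligand, had means of 20.1 ± 10.6 and 5.69 ± 6.03, and Rsl24d1, a factor of ribosome assembly, 21.9 ± 7.78 and 8.91 ± 8.06. Exoc6b, an exocyst subunit, had 13.1 ± 10.2 and 3.57 ± 3.73, with hepatectomy library 5 at 31.4 and the other 4 between 7.65 and 9.47. The region RGD1359380, RefSeq Timmdc1, was lower in 4 of 5 pairs (31.5 ± 6.53 and 13.9 ± 7.70). Each of these regions had an adjusted p of 0.748.

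**Figure D3:**
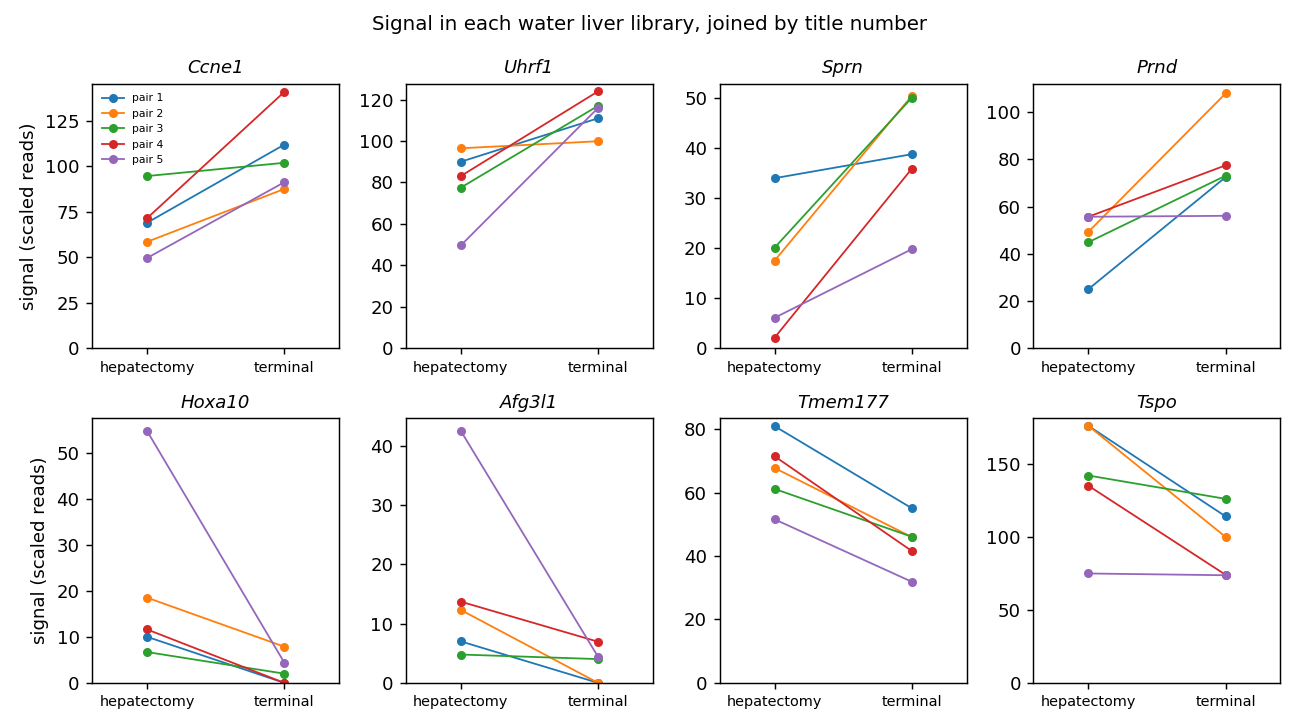
Signal of 8 regions in each water library, hepatectomy and terminal values joined by title number, with axes that start at 0. Ccne1, Uhrf1, Sprn and Prnd are higher in all 5 terminal livers of their pairs, and Hoxa10, Afg3l1, Tmem177 and Tspo are lower in all 5; hepatectomy library 5 is the highest for Hoxa10 and Afg3l1.

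Among regions of higher signal, the lowest p belonged to a histone gene and a cyclin. Hist1h2bn, a histone H2B gene whose region overlaps the linker histone gene Hist1h1b and whose transcript RefSeq calls Hist1h2bo, had 41, 28.7, 37.3, 83.1 and 43.5 at hepatectomy and 114, 47.2, 76.1, 82.1 and 92.4 at terminal euthanasia. It was higher in 4 of 5 pairs, and hepatectomy library 4 lay among the terminal livers. Its log2 difference was 0.84 ± 0.22 (adjusted p = 0.748). Histone genes have near-identical copies, so reads may not be unique to this one.

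Ccne1, cyclin E1, which drives entry into DNA synthesis (chromosome 1, 90576301 to 90581926), had 69, 58.5, 94.7, 71.5 and 49.6 at hepatectomy. The terminal values were 112, 87.6, 102, 141 and 91.3, so all 5 pairs were higher, and hepatectomy library 3 overlapped the terminal range. The log2 difference was 0.64 ± 0.18 and 0.59 without pair 5 (adjusted p = 0.748, and 0.393 to 1 over the alternatives). Of 50 tested regions of the cell cycle and replication list, none passed. At an unadjusted p under 0.05, 2 were higher and none lower, beside 3.31% and 1.65% of all regions. The second was Ccna2, cyclin A2 of the S and G2 phases, with 18.6 ± 11.5 and 31.7 ± 13.9 (log2 difference 0.85, higher in 5 of 5 pairs). The list's median difference was 0.05, beside 0.06 for all regions, and without pair 5 it was 0.12 beside 0.02. Tyms, which makes thymidylate for DNA synthesis, had 46.5 ± 18.9 and 61.7 ± 11.4, higher in 3 of 5 pairs. Ccnd1, cyclin D1, which carries growth signals into the cycle, had 0 to 14.2 in the 10 libraries, with at most 14 reads at either time, and no difference was detectable at this depth. Myc, a growth-driving transcription factor, had 6.31 to 20.2 at hepatectomy and 4.01 to 11.2 at terminal euthanasia, with overlap.

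The DNA methylation machinery had 4 of 33 tested regions with an unadjusted p under 0.05, all higher at terminal euthanasia, beside 3.31% of all regions in that direction. None passed after adjustment. Uhrf1, the guide of Dnmt1 named above, had 90, 96.5, 77.5, 83.1 and 49.6 at hepatectomy and 111, 99.9, 117, 124 and 116 in terminal livers, with no overlap. Its log2 difference was 0.54 ± 0.21, and 0.38 without pair 5 (adjusted p = 0.966). The region overlaps that of Arrdc5, an arrestin-domain gene on the other strand, which had 96.7 ± 28.3 and 144 ± 14.2, a log2 difference of 0.63 and no overlap. The 2 share reads and are 1 place rather than 2.

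Dnmt3b, which methylates CpG afresh, had 34, 25.7, 46.9, 31.6 and 38.5 and then 57.2, 51.7, 58.1, 52 and 37.4, so 4 of 5 pairs were higher (log2 difference 0.54 ± 0.24). Hells, a chromatin remodeller needed for methylation of repeats, had 48.7 ± 12.1 and 67.3 ± 8.78, higher in all 5 pairs. That region is on 1_random in the files, and a second Hells region had means of 5.06 and 5.79 and a log2 difference of -0.10. Uhrf2, a relative of Uhrf1, had a log2 difference of 0.38. The maintenance enzyme Dnmt1 itself had 84.5 ± 12.5 and 85.5 ± 16.3, a log2 difference of 0.01 that was -0.11 without pair 5. The list's median was 0.11, and 0.05 without pair 5, when all regions had 0.02. Its pair medians ran from -0.14 in pair 1 to 0.39 in pair 5.

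**Figure D4:**
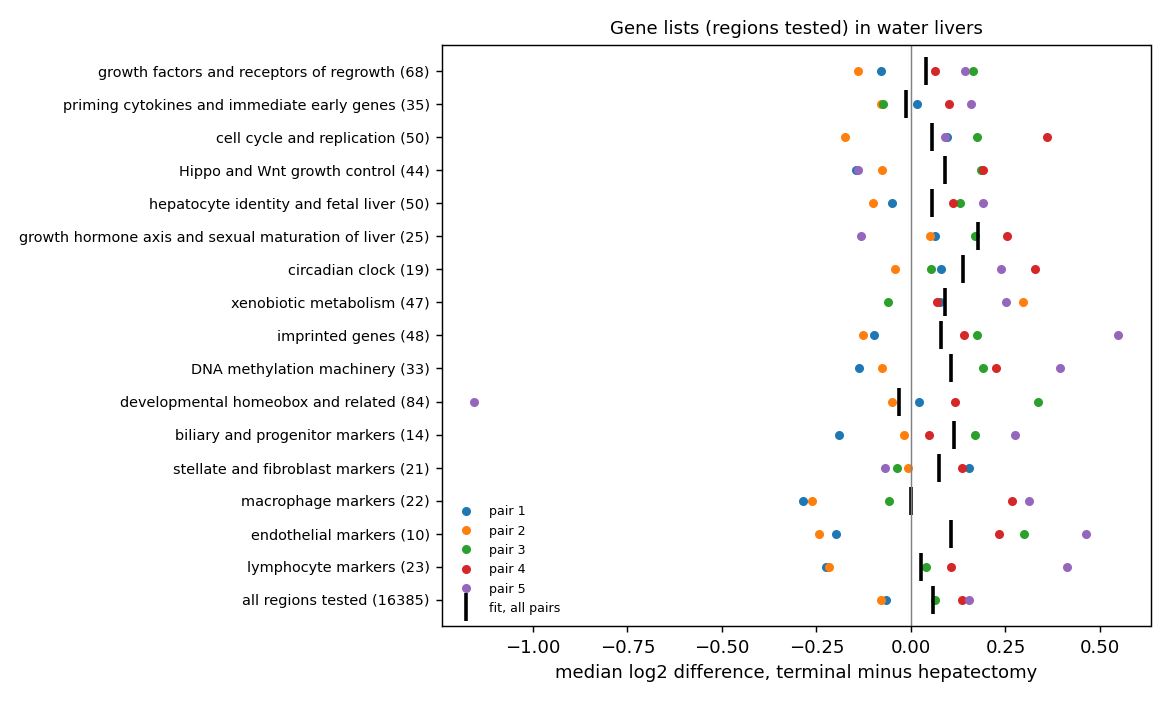
Median log2 difference (terminal minus hepatectomy) over the tested regions of each gene list, with the number of regions in brackets, for each pair (points) and for the fit to all pairs (bar). Most list medians lie near that of all regions, 0.06, and the homeobox list has its lowest point, -1.15, in pair 5.

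Genes of the priming phase gave 1 higher and 2 lower among 35 tested at an unadjusted p under 0.05, beside 3.31% and 1.65% of all regions, with a list median of -0.01. Socs1, which restrains cytokine signalling through Jak kinases, had 99, 140.0, 85.1, 115 and 38.5 at hepatectomy and 134, 121, 141, 161 and 133 at terminal euthanasia. It was higher in 4 of 5 pairs, its log2 difference was 0.64 ± 0.19, and without pair 5 this was 0.36 (adjusted p = 0.903). Its region overlaps those of Prm3 and Tnp2, genes of sperm chromatin proteins. Rela, the p65 subunit of NF-kappaB, had 28, 44.2, 29.6, 24.2 and 39.5 and then 14.3, 15.7, 14, 15 and 23.1. The groups did not overlap, and the log2 difference was -0.96 ± 0.35, or -1.01 without pair 5 (adjusted p = 0.966). Jak1, a kinase of the interleukin-6 receptor, had 10.2 ± 10.4 and 2.98 ± 2.89, and its log2 difference of -1.46 was -0.60 without pair 5.

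Growth factors and their receptors had 2 of 68 regions higher at an unadjusted p under 0.05, none lower, beside 3.31% of all regions higher. The list's median was 0.04, and 0.0038 without pair 5. The 2 were Plg, plasminogen, whose active form helps release Hgf (63.6 ± 28.5 and 82 ± 6.52), and Fgfr4, the liver receptor for bile-acid-responsive Fgf (106 ± 33.5 and 137 ± 24.4). The Fgfr4 difference of 0.41 was 0.12 without pair 5. Hgf, the main growth factor for dividing hepatocytes, had 58 ± 11.1 and 76.5 ± 11, higher in 4 of 5 pairs (log2 difference 0.40, adjusted p = 0.966). Its receptor Met had 145 ± 25.5 and 163 ± 12.7 (log2 difference 0.18). The Hippo and Wnt list had 2 of 44 regions lower, none higher, beside 1.65% of all regions lower. Rspo3, a Wnt enhancer, had 32.7 ± 12.7 and 18.1 ± 2.96, lower in all 5 pairs, and Vgll4, an inhibitor of the Hippo effector Yap, 14.4 ± 9.22 and 6.28 ± 4.10.

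The growth hormone axis, which shapes sex-specific liver function as rats mature, had the highest list median, 0.18, and 0.20 without pair 5. Of its 25 tested regions 16 were above 0, beside 59.1% of all regions, and several are overlapping starts of the same gene. Only 1 of the 25 had an unadjusted p under 0.05, beside 3.31% of all regions higher at that p. It was Stat5b, the transcription factor downstream of the growth hormone receptor (91.1 ± 26.2 and 118 ± 13.9, log2 difference 0.41, and 0.20 without pair 5). Igf1, the hormone that the liver secretes in response, had 42, 77, 52.6, 72.6 and 57.7 and then 76.6, 91, 66.1, 86.7 and 63.8 at the place shared by a pair of its transcripts. All 5 pairs were higher, by 0.36 ± 0.20 (adjusted p = 0.966), and the groups overlapped. At the place of its other transcripts, a little downstream, the means were 17.3 ± 6.14 and 18.5 ± 11.9.

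Imprinted genes, which carry methylation on 1 parental copy, had a median of 0.08 over 48 regions, and 0 without pair 5. Of these, 2 were higher at an unadjusted p under 0.05, beside 3.31% of all regions. They were a pair of Calcr transcripts (the calcitonin receptor) at a single place, with 123, 96.5, 127, 90.4 and 85 and then 133, 148, 148, 130 and 130. The groups did not overlap, and the log2 difference was 0.41 ± 0.17 (adjusted p = 0.966). H19, a non-coding RNA with strong signal, had 514, 526, 434, 430.0 and 248 at hepatectomy and 486, 470.0, 490.0, 577 and 481 at terminal euthanasia. Its log2 difference of 0.26 was 0.09 without pair 5. Igf2, the fetal growth factor beside it, had group means between 5.61 and 19.4 at its 3 overlapping regions, with all groups overlapping.

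Hepatocyte genes had 2 of 50 regions higher at an unadjusted p under 0.05, none lower, beside 3.31% of all regions higher, with a median of 0.06 that was 0.0013 without pair 5. Cebpa, a transcription factor that holds hepatocytes in their mature state, had 36, 67.8, 43, 41 and 45.6 and then 63.3, 87.6, 52.1, 62.5 and 71.5. All 5 pairs were higher, by 0.53 ± 0.20 and by 0.51 without pair 5 (adjusted p = 0.966), and hepatectomy library 2 overlapped the terminal livers. Afp, the fetal serum protein, had 80.2 ± 14.1 and 107 ± 30.3, and Alb, albumin, 37.9 ± 14.2 and 48 ± 6.70. Among xenobiotic genes only Gsta5, a glutathione transferase that RefSeq names Gsta3, had an unadjusted p under 0.05 of 47 tested (144 ± 51.7 and 186 ± 24.1), and its difference of 0.45 was 0.17 without pair 5. A second Gsta5 region was at 0.05. Cyp2c23, a P450 that oxidises arachidonic acid, was lower in all 5 pairs, from 68, 73.9, 60.2, 55.7 and 65.8 to 48, 59.5, 32, 54.4 and 40.7 (log2 difference -0.48 ± 0.19). Of 19 clock genes only Arntl, the core activator Bmal1, had an unadjusted p under 0.05, with 75.8 ± 13 and 99.9 ± 20.1. Gsta5 and Arntl were higher, beside the same 3.31% of all regions.

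Developmental homeobox genes, many of them silent in adult liver, went both ways. Of 84 regions 4 were higher and 5 lower at an unadjusted p under 0.05, beside 3.31% and 1.65% of all regions, and the list's median was -0.03. The pair medians were 0.02, -0.05, 0.34, 0.12 and -1.15, so pair 5 stood far from the rest, and without it the list had 0.02. Hoxa2, which patterns the hindbrain, went from 6, 3.08, 7.65, 2.10 and 17.2 to 28.6, 30.3, 11, 13.9 and 23.1. All 5 pairs were higher, by 1.63 ± 0.50 and by 1.94 without pair 5 (adjusted p = 0.956). Hoxa6 (0.49) and Hoxc5 (0.77) were among the other higher ones, and beside Hoxa10 the lower ones were Hoxd12 (-1.05), Hoxd13 (-1.41), Hoxc12 (-1.08) and the heart factor Nkx2-5 (-1.27). These log2 differences, and the counts above, include pair 5, which fell most in regions of low signal. The regions of this list had a median signal of 18.5 at hepatectomy, beside 54.1 for all regions. The list's median change was 0.39 in phenobarbital livers and 0.24 in initiated livers, where the medians of all regions were 0.01 and 0.05. Without the weakly enriched libraries the list had 0.22 in phenobarbital and 0.15 in initiated livers, and all regions 0.03 and 0.05.

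Marker lists of other liver cells had medians between 0.0007 and 0.11, beside 0.06 for all regions. Without pair 5 they went from 0.11 to 0.03 for biliary, 0.11 to 0.04 for endothelial, 0.07 to 0.04 for stellate, 0.03 to -0.08 for lymphocyte and 0.0007 to -0.06 for macrophage markers, when all regions had 0.02. Macrophage markers had the lowest of these medians with pair 5 included, and lymphocyte markers without it. Macrophage markers had 0 of 22 regions with an unadjusted p under 0.05. Endothelial markers had 0 of 10, biliary and progenitor markers 0 of 14. At that p, 3.31% of all regions were higher and 1.65% lower. Stellate and fibroblast markers had Gfap higher (157 ± 38.5 and 197 ± 23.2) and Col1a1, a collagen chain, lower (43.9 ± 9.32 and 32.5 ± 22.1) of 21. Lymphocyte markers had Cd8b higher (130 ± 25.5 and 171 ± 21.8) and Cd7 lower (45 ± 12.7 and 26.3 ± 10.6) of 23. Their part in the other results was not tested.

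Several regions outside the lists were among the lowest p-values at higher signal. Prnd, the gene of the prion-like protein Doppel, had 25, 49.3, 44.9, 55.7 and 55.7 and then 72.5, 108, 73.1, 77.5 and 56.1. The groups did not overlap, though pair 5 differed by little, and the log2 difference was 0.76 ± 0.21 (adjusted p = 0.748). Sprn above encodes another member of the prion family. The region RGD1563634, RefSeq Cactin, had 61.7 ± 23.4 and 102 ± 24.9, higher in all 5 pairs, as was the miRNA gene Mir138-2, whose region overlaps that of Slc12a3 (109 ± 27 and 162 ± 37.2).

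Recql, a DNA helicase gene whose region overlaps that of Golt1b, had a wide spread within each time. Its signals were 519, 418, 70.8, 56.8 and 88.1 at hepatectomy and 524, 320.0, 88.1, 396 and 184 at terminal euthanasia. Numbers 1 and 2 were high at both times and number 3 was low at both, while number 4 went from low to high. The log2 difference was 0.75 ± 0.22 in the paired fit, and over the alternatives it ranged from 0.25 to 1.04. RT1-CE5, a class I histocompatibility gene, had a spread of the same kind. It had 24, 42.1, 1.91, 5.26 and 23.3 and then 30.6, 26.9, 7.01, 33.5 and 13.2, with number 3 the lowest at both times and number 4 again going from low to high.

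On the lower side, Tmem177, a mitochondrial membrane protein needed for cytochrome oxidase assembly, had 81, 67.8, 61.2, 71.5 and 51.6 and then 55.1, 46, 46.1, 41.6 and 31.9. Signal was lower in all 5 pairs, with a log2 difference of -0.59 ± 0.21, and the ranges overlapped a little (adjusted p = 0.966). Ppie, a spliceosomal peptidyl-prolyl isomerase, had 66 to 76.8 at hepatectomy and 42.9 to 65.9 at terminal euthanasia, with no overlap. Tspo, a mitochondrial outer-membrane protein that binds cholesterol, had 176, 176, 142, 135 and 74.9 and then 114, 99.9, 126, 74 and 73.7, lower in all 5 pairs. Zbtb32, a zinc finger repressor of lymphocytes, had 92.7 ± 15.6 and 63.4 ± 13.2. Entpd3, which degrades extracellular nucleotides, had 95.1 ± 7.86 and 69.8 ± 19.9, and Kcns2, a potassium channel subunit, 68.9 ± 26.8 and 42.4 ± 19.7. Olr1383, an olfactory receptor gene, had 97.8 ± 53 and 59.6 ± 11, and hepatectomy library 5 alone was at 189.

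The change in water livers was next set against that in phenobarbital livers, which shared the vehicle and the surgery. limma called 2 of 16385 regions (0.0122%) for a difference between these changes, Samd12 and Afg3l1, and 1377 (8.4%) had an unadjusted p under 0.05, of which 678 were higher in water (4.14%) and 699 lower (4.27%). Over the same 16385 regions the count of 1377 became 734 without the weakly enriched libraries. It was 743 without water pair 5 and 733 without phenobarbital pair 5. Samd12 and Afg3l1 both lay below the median signal and were named after their values were seen. Neither call held without the pairing of numbers (adjusted p = 0.0812 for Samd12 and 0.134 for Afg3l1), without the weakly enriched libraries (0.250 and 0.375) or without water pair 5 (0.176 and 0.234). Over these the difference between the changes was 1.80, 1.70 and 1.66 for Samd12 and -3.27, -2.96 and -3.05 for Afg3l1.

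Samd12, which encodes a protein with a sterile alpha motif domain (chromosome 7, 90089750 to 90095375), had 40, 26.7, 22, 29.4 and 24.3 in water livers at hepatectomy and 57.2, 48.3, 31, 46.3 and 61.6 at terminal euthanasia. Phenobarbital livers had 36.9, 52.2, 49.8, 48 and 77.1 and then 34.7, 26.2, 16.2, 13.8 and 41.2. All 5 pairs were higher in water and all 5 lower in phenobarbital livers. The changes were 0.75 ± 0.24 and -1.05 ± 0.24, and they differed by 1.80 ± 0.34 (adjusted p = 0.0170, and 0.00215 to 0.250 over the alternatives). Initiated livers had 38.8 ± 11.1 and 37.9 ± 9.78 (SD, n = 25), a change of -0.03.

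Afg3l1 had 6.32, 3.33, 9.54, 10.9 and 8.46 in phenobarbital livers at hepatectomy and 14.9, 20.2, 16.2, 10.4 and 25.2 at terminal euthanasia, higher in 4 of 5 pairs. The change of 1.1 ± 0.47 stood against -2.16 in water livers, a difference of -3.27 ± 0.66 (adjusted p = 0.0418, and 0.00921 to 0.375 over the alternatives). In initiated livers the region was at 12.1 ± 5.26 and 12.1 ± 6.60. The largest value in each arm came from a weakly enriched library, 42.5 in hepatectomy library 5 of water and 25.2 in terminal library 5 of phenobarbital.

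Among regions of higher signal none passed this comparison. The lowest p-values belonged to Kbtbd8, an adaptor of a ubiquitin ligase, with changes of 0.47 in water and -0.56 in phenobarbital livers, to Ghitm, a mitochondrial inner-membrane protein (0.57 and -0.44), and to Ptpmt1, a mitochondrial phosphatase of cardiolipin synthesis (0.46 and -0.66). In the other direction they were Cds1, which makes CDP-diacylglycerol (-0.48 and 0.43), Zbtb32 (-0.55 and 0.34) and the Ras regulator Rasal1 (-0.57 and 0.47). Over all tested regions the changes in water and phenobarbital livers had a Pearson's r of -0.28, and without the weakly enriched libraries it was 0.02. This is a description over regions, and no library is shared.

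Against initiated livers, 0 of 16385 regions (0.0%) were called by limma for a different change, and 768 (4.69%) had an unadjusted p under 0.05, of which 339 were higher in water (2.07%) and 429 lower (2.62%). The lowest p-values at higher signal were those of P2ry2, a nucleotide receptor, Tmprss11d, an airway serine protease, and Dhrs9, a retinol dehydrogenase, on the higher side in water. On the lower side they were Tmem177, Entpd3 and Rgl2, a Ral activator. Tmprss11d had 73.6 to 101 and 111 to 143 in water livers, with no overlap, and changes of 0.59 in water and -0.08 in initiated livers, while a second Tmprss11d region had means of 4.00 and 3.94 in water. P2ry2 had a change of 0.43 in water, higher in all 5 pairs, and of -0.40 in initiated livers, where it was called (adjusted p = 0.0404). That call was lost with no replicate block (adjusted p = 0.0734), without the weakly enriched libraries (0.181), with a pseudocount of 0.1 (0.0556) and with no filter (0.125). The difference of 0.83 between these did not pass (adjusted p = 0.556).

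Initiated livers had 16 called regions (0.0977%), 15 of them higher at terminal euthanasia, in a fit with 25 pairs. These pairs include the initiated libraries with repeated scaling totals described above. Quantile normalization gave 17 calls, 11 higher and 6 lower, and so did rescaling to the sum over regions. Each kept 11 of the 16. At an unadjusted p under 0.05 in limma, 951 regions were higher and 113 lower. These counts were 528 and 493 with quantile normalization, and 483 and 376 with rescaling. With no replicate block 6 of the 16 were called (Cbx8, Cdk5r1, Fam110a, Hist1h4b, Septin9 and Znf597), and also 6 with no filter on low signal. Without the weakly enriched libraries, which left 19 pairs, 9 of the 16 were called with 4 others, and Arrb1, Coasy, Mir196b, Nkx6-2, Nr4a3, P2ry2 and Sox7 were lost. Water livers took no part in choosing these, apart from the shared variance. A region with a low shared variance gets a lower p in each kind of liver. The counts by p of these 16 are therefore not a like comparison with all regions. Of the 16, 13 had the same direction in water livers, and 7 of these, all higher, had an unadjusted p under 0.05. Of all regions 59.1% were above 0 in water and 3.31% were higher at that p. In phenobarbital livers 15 of the 16 had the same direction, 8 of them with an unadjusted p under 0.05. Over all 16385 regions in phenobarbital livers, 842 were higher and 381 lower at that p in limma, with a median change of 0.01. The median change in water of the 15 higher regions was 0.35, beside 0.06 for all regions, and 0.47 beside 0.02 without the weakly enriched libraries. The median of the same 15 in initiated livers, where they were chosen, was 0.60.

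The 7 regions with the same direction and an unadjusted p under 0.05 are given with their change in water first and in initiated livers second. Sox7, a transcription factor of endothelium, had 92, 61.6, 93.7, 85.2 and 55.7 and then 127, 115, 96.1, 136 and 86.9 in water, higher in all 5 pairs, with changes of 0.54 ± 0.19 in water and 0.38 ± 0.09 in initiated livers. Arhgef2, a guanine nucleotide exchange factor, had 0.59 and 0.48, Gp1bb, a platelet glycoprotein, 0.51 and 0.43, and Nr4a3, an orphan nuclear receptor, 0.51 and 0.38. Coasy, which completes coenzyme A, had 0.52 and 0.46, and Znf597, an imprinted zinc finger gene, 0.40 and 0.40. Septin9, a cytoskeletal septin, had 0.49 and 0.67. Other regions of 2 of these genes differed, with water changes of -0.53 at a second Nr4a3 region and of -0.05 and 0.16 at 2 other Septin9 regions. In water livers none of the 7 passed (adjusted p = 0.966).

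P2ry2, given above, went the opposite way in water at an unadjusted p of 0.0366 in limma, and the other 8 regions of the set did not reach an unadjusted p under 0.05. Mir196b, a miRNA gene of the Hoxa cluster, had a change of -0.73 ± 0.55 in water and 1.15 ± 0.24 in initiated livers, with 13.4 ± 11.5 and 8.63 ± 6.57 in water. Abcg4, a sterol transporter, had -0.12 and 0.64, and Arrb1, beta-arrestin, 0.06 and 0.43. Cbx8, a Polycomb subunit, had 0.18 in water and 1.16 in initiated livers. Its hepatectomy library 5 in water was at 32.4 and the other 4 between 7.65 and 11.6, and without pair 5 the change was 0.63. Hist1h4b, a histone H4 gene, and Nkx6-2, a homeobox factor of the nervous system, had the same feature, with hepatectomy library 5 at 57.7 and 68.8. Their changes in water were 0.30 and 0.35, and 0.75 and 0.67 without that pair, beside 0.85 and 0.80 in initiated livers. Fam110a had 0.23 in water and 0.61 in initiated livers, and Cdk5r1, an activator of Cdk5, had 0.15 and 0.60. Phenobarbital livers without initiator had 2 called regions (0.0122%), Wt1, a transcription factor of the kidney and mesothelium, and the mitochondrial phosphatase Pptc7. Both were higher, by 1.87 for Wt1 and 1.23 for Pptc7. Neither was called with quantile normalization, without the weakly enriched libraries or without phenobarbital pair 5, and Wt1 was not with no replicate block (adjusted p = 0.147) or no filter (0.311). In water livers their log2 differences were -0.47 ± 0.36 and -0.21 ± 0.23, and neither passed.

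**Figure D5:**
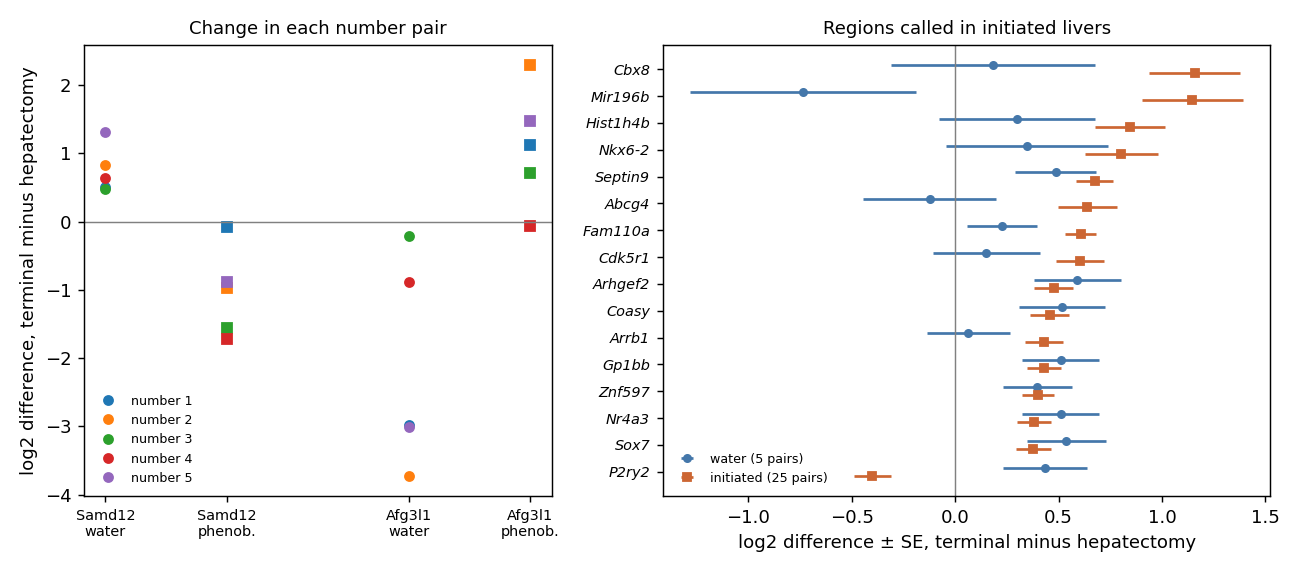
Left, log2 difference (terminal minus hepatectomy) of Samd12 and Afg3l1 for each title number in water (circles) and phenobarbital livers (squares). Right, log2 difference ± SE of the 16 regions called in initiated livers, in water (5 pairs) and initiated livers (25 pairs): 13 of the 16 have the same sign in both.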

How the data were processed

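Methylated DNA from 70 rat liver libraries, 5 in each of 14 groups, was captured with MethylMiner and read for 50 bases on a SOLiD 4, per the labels' protocols. Per the file headers, the deposited signal gives 1 value per library for each of 17174 regions, in 1 table per time. Each column held whole multiples of a step equal to 50 M divided by a whole number, called the scaling total, with 0.01 where no read fell. The sources used here do not give the aligner, the genome build or what that total counts. No column lacked a known sample.

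Signal was analysed as log2(signal + 1). Regions with a signal of at least 10 in at least 5 of the 70 libraries were tested. limma 3.58.1 in R 4.3.3, with a variance trend, fitted 1 block per condition and title number and 1 time coefficient per condition, leaving 28 residual degrees of freedom, and p-values were adjusted by Benjamini-Hochberg over all tested regions. Differences are on the log2(signal + 1) scale, which understates changes of low regions. p-values measure the spread between these libraries. The fit was also run on simulated data, with changes only in regions of above-median signal and no weakly enriched library. That run cannot speak for changes in low-signal regions or for the effect of hepatectomy library 5. Library measures were compared with exact paired permutation tests. The authors' deposited p-values and peak list were not used.

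The named genes were, per direction, the 8 regions with the smallest p and a mean above the median of 55.1, up to 3 members of each of 16 gene lists, 3 per direction for the comparisons with other livers, 10 genes chosen by name (Ccnd1, Hgf, Met, Igf1, Igf2, H19, Alb, Afp, Dnmt1, Myc) and the regions called in other livers. Others were named after their values were seen, as stated. The members and lists were chosen with earlier results of these data known. Alternatives were the block, the libraries, pseudocount, filter, normalization and leaving out each pair. Promoter sequences came from RefSeq (GRCr8), matched through the transcript or symbol. Their table covered 77.8% of regions, under 80%, so a check of CpG content over all regions is void.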

Additional observations from a re-analysis of the deposited data

Results flagged for a closer look

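In water livers, 21 of 140 sets of 5 libraries (a region or library measure at 1 time) had a library far from the other 4, where chance gives about 1 in 20. Hepatectomy library 5 was that library for the 10th percentile of signal (15.2) and the percent of regions without a read (0.611). The same library was the far one, and high, for Olr1383 (189), Ccnd1 (14.2), Igf2 (24.3 and 31.4 at 2 overlapping regions), Exoc6b (31.4), Nkx6-2 (68.8), Hist1h4b (57.7), Cbx8 (32.4) and Afg3l1 (42.5). It was low for Ptpmt1 (43.5) and Znf597 (74.9). Hepatectomy library 4 was high for Hist1h2bn (83.1).

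At terminal euthanasia, library 1 was high for Mir138-2 (228), library 2 low for Olr1383 (40.4), library 3 high for Dhrs9 (182) and low for Myc (4.01), library 4 high for Cds1 (99.5) and H19 (577), and library 5 high for Met (186).

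The test of the difference in change between water and phenobarbital livers called Samd12 (1.80, limma adjusted p = 0.0170) and Afg3l1 (-3.27, adjusted p = 0.0418). Neither call held with no replicate block, without the weakly enriched libraries or with rescaling to the sum over regions. In these limma fits the adjusted p was 0.0701 to 0.25 for Samd12 and 0.0701 to 0.375 for Afg3l1. Both calls were also lost without the weakly enriched water pair.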

How the results depend on the processing

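No region was called in water livers with no replicate block (0), with a pseudocount of 10, no filter, a stricter filter, quantile normalization, without weakly enriched libraries or rescaled to the sum over regions. There were 2 called in the fit to the 10 water libraries (Hspe1 and Sprn, 1.11 and 1.61), 2 with a pseudocount of 0.1 (Afg3l1 and Hoxa10, -3.46 and -3.95), and 0 to 1 when 1 pair was left out. The last 2 alternatives for phenobarbital livers, rescaling and leaving out MC_PB pair 5, were chosen after seeing the data. For the difference from phenobarbital livers, 2 calls became 0 with no replicate block, without weakly enriched libraries and with rescaling. They became 1 (Samd12) with a pseudocount of 10, no filter, a stricter filter, quantile normalization and without MC_PB pair 5, and 0 to 5 when 1 water pair was left out. The 5 came without pair 2 and the 0 without pair 5. No alternative called a region for the difference from initiated livers. The causes were not tested.

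The labels do not say what a shared number means, and same-number deviations in water had correlations of 0.080, 0.051, 0.043, 0.036 and 0.132, under 0.1 in 4 of 5 pairs. Each hepatectomy library correlated best with its own number in 4 of 5 cases. The rule set in advance asked for over 0.1 in every pair, so a shared number was not taken as the same animal. What else the samples of a number share is not known. In limma the block took the regions with an unadjusted p under 0.05 from 630 to 812 and the smallest adjusted p from 0.633 to 0.141.

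The 16 higher-signal regions with the smallest p were chosen in the same libraries that the alternatives refit. A change of sign was therefore unlikely from the start, and its absence says little about the changes. Of their 240 values under the alternatives, 0 were opposite in sign. Of 1615 water changes of named regions, 33 were, all of regions that did not pass. Without the weakly enriched libraries Arrb1 was at -0.0043, Igf2 at 0.37 in 1 of its regions, Ccnd1 at 0.13, Igf1 at 0.23 at its downstream place, Myc at 0.0588, Dnmt1 at -0.11 and Abcg4 at 0.10. With quantile normalization Igf1 there was at 0.092, Myc at 0.0241 and Dnmt1 at -0.0654, and with rescaling Arrb1 was at -0.0189 and Dnmt1 at -0.0754. Leaving out 1 pair gave ranges of -0.0043 to 0.15 (Arrb1), -0.82 to 0.37 (Igf2), -1.06 to 0.13 (Ccnd1), -0.18 to 0.36 (Cdk5r1), -0.37 to 0.11 (Pptc7), -0.53 to 0.24 (Igf1), -0.34 to 0.0588 (Myc), -0.11 to 0.13 (Dnmt1), -0.31 to 0.10 (Abcg4) and -0.12 to 0.63 (Cbx8). Library measures ranged from -2.39 to 0.518 (10th percentile), -1.59 to 21.1 (90th percentile) and -0.0976 to 0.629 (percent of regions without a read), and each change of sign came without pair 5. Of 96 list medians under an alternative, 95 moved by less than the spread of pairs. The pairs lay far apart, for imprinted genes from -0.13 in pair 2 to 0.55 in pair 5. The imprinted median went from 0.08 to -0.0017 without pair 5 and is among the 95, so this count does not show steady medians. The stellate median, the 1 that moved by more, went from 0.07 to 0.18 without pair 3.

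Count models on recovered reads were planned and not run. A median of 44 to 52 reads a region, and 0 to 20 in regions such as Ccnd1 and Myc limits the precision there, and 5 pairs cannot give an exact p below 1 in 16.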
